A study of Arabidopsis thaliana with 6 samples.

Results

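The cysteine-rich receptor-like kinases (CRKs) of Arabidopsis thaliana were followed through 6 RNA-seq libraries of the root meristematic zone, 3 for Mock and 3 for the peptide RGF1. The members were 42 genes chosen by their identifiers, CRK1 to CRK34, CRK36 to CRK42 and CRK45, out of 30424 genes in the deposited count tables. The list follows the family's nomenclature and holds 37 genes on chromosome 4. No threshold on a measured value was applied, but the family was selected on sight of the fold changes and adjusted p of RGF1 against Mock in these libraries, among them the call of AT4G23250 (CRK17), so that the counts of members called are a description and support nothing by themselves. Both groups were Col-0 seedlings homozygous for the HYP2-GFP transgene, 6 days after germination, held for 1 h in liquid MS medium with water (Mock) or with the RGF1 peptide at 100 nM. Guided by the GFP signal, the meristematic zone was dissected, and 20 root sections were combined in each RNA sample. The promoter that drives the reporter is not given in the labels. Each treatment had 3 RNA extractions, which the labels do not assign to separate plates or days. The p-values therefore reflect the spread among these extractions, and part of it may be technical.

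CRKs are plasma membrane kinases whose extracellular part carries repeats of a cysteine motif known as DUF26, with a transmembrane helix and a cytoplasmic serine/threonine kinase domain. Many CRK genes are known to be induced by salicylic acid, pathogens and ozone, and the family is known for roles near apoplastic reactive oxygen species and pattern-triggered immunity, where CRK2 acts on the oxidase RBOHD and CRK28 works with the co-receptor BAK1. RGF1 is a sulfated peptide hormone of the root meristem with its own receptor kinases, and the study's title ties its action to reactive oxygen species. W-boxes, the sites bound by WRKY transcription factors and built on the letters TTGAC, have been described in CRK promoters.

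Total counts ranged from 5421243 to 9495012 per library. Values are CPM (library-size-normalised counts after TMM scaling), in which a floor of 3 counts lay between 0.313 and 0.565 CPM. Reads carried no molecular identifiers and are not independent molecules, so floors cover counting error only. The 4 meristem marker genes summed to between 107 and 140 CPM in the Mock libraries and between 93.8 and 183 CPM in the RGF1 libraries. Singly they went in both directions. PLT2, UBC20, PLT1 and AT4G37490 had log2 fold changes of 1.23, 0.21, -0.35 and -0.74 for RGF1 against Mock, and 0 were called by edgeR. Markers of other tissues were present too. The 3 leaf markers summed to between 174 and 717 CPM in Mock and between 35.7 and 431 CPM after RGF1, the 3 endodermis markers to between 0 and 28.2 and between 1.77 and 9.98 CPM, the 3 root hair markers to between 8.62 and 34.6 and between 8.29 and 24.2 CPM, and the 2 root cap markers to between 3.36 and 12.4 and between 1.98 and 14.7 CPM. The 3 xylem markers summed to between 5.33 and 7.07 CPM in Mock and between 0.565 and 3.96 CPM after RGF1, and for these the groups did not overlap. The part of these tissues in the results was not tested.

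Promoters of 4 members are shown, as the 250 bases before the annotated start in TAIR10.1, because CRK17, CRK10 and CRK11 were each called by at least 1 of the fits described below and CRK30 had the most negative fold change among the tested members. CRK2 and CRK3, whose groups also did not overlap, held 0 copies of the motif described here and are not printed. They are CRK17 (AT4G23250, minus strand, chr4:12167027-12167276), CRK10 (AT4G23180, plus strand, chr4:12137745-12137994), CRK11 (AT4G23190, minus strand, chr4:12143859-12144108) and CRK30 (AT4G11460, plus strand, chr4:6963271-6963520). Each sequence reads 5′ to 3′ on the strand of its gene, and capitals mark TTGAC or its reverse complement GTCAA.
CRK17: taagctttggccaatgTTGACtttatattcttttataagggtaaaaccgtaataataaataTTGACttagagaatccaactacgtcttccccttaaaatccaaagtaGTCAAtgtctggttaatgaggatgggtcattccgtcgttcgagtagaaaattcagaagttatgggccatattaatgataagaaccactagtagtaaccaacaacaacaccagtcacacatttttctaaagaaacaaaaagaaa
CRK10: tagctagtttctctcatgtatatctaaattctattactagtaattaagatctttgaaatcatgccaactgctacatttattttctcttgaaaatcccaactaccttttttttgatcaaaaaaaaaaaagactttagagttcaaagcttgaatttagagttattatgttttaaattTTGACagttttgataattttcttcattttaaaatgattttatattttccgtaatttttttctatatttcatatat
CRK11: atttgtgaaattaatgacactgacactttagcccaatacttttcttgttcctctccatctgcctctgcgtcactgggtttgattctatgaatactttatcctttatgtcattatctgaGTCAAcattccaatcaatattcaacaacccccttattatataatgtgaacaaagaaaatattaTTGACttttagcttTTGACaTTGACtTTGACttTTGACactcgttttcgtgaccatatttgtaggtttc
CRK30: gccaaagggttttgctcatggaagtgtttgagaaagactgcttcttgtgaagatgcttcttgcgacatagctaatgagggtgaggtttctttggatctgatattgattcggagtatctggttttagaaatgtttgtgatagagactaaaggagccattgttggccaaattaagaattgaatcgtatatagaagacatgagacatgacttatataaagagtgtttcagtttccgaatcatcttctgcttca

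The CRK11 promoter held 6 copies of TTGAC on either strand, 5 of them starting between 36 and 69 bases before the start, and 1 at 132 bases. CRK17 held 3 copies, at 143, 189 and 234 bases, CRK10 held 1 copy at 75 bases, and CRK30 held 0. CRK27 and CRK34, which also had negative fold changes, each held 1 copy. Over the window from 250 bases before to 50 bases after the start, TTGAC was found on either strand in 31 of the 42 members (73.8%) and in 50.5% of the 27443 protein-coding promoters. The 42 members include a tandem array of 20 genes, each counted as a separate promoter. The longer form TTGACT was found in 19 members (45.2%, against 21.8% of all promoters) and TTGACC in 10 (23.8%, against 14.2%), and each of these also counts as a TTGAC. The shorter form was present in 9 of the 13 members that passed the expression filter and in 22 of the 29 that did not.

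Most CRK genes had few or no reads in the meristematic zone. Of the 42 members, 14 had 0 counts in the 6 libraries, a share of 33.3% against 27.6% of all listed genes. A further 13 had between 1 and 10 counts over the 6 libraries together, and CRK40 and CRK42 had 18 and 11. The other 13 members passed edgeR's default expression filter and were tested, 31.0% of the family against 55.0% of all listed genes. At a level of at least 1 CPM in each library of a group, 10 members were detected in Mock and 10 after RGF1, and 8 of these in both. The silent members included genes known from immunity and oxidative stress in leaves. CRK7, which acts in responses to extracellular reactive oxygen species, and CRK13, whose overexpression raises resistance to Pseudomonas, had 0 counts in every library. CRK5 had 8 counts and CRK20 had 8, all in RGF1 libraries, and CRK36, a kinase of abscisic acid responses, had 3. Its cytoplasmic partner CRK45 (ARCK1) had 1 count, in a Mock library.

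Expressed members fell into 3 abundant genes and a longer tail. Per kb of annotated exon, CRK29 (AT4G21410) led the Mock libraries with 23.6 ± 10.1 CPM per kb (SD, n = 3), followed by CRK19 (AT4G23270) with 18.9 ± 7.92 and CRK28 (AT4G21400) with 14.2 ± 1.69 CPM per kb. Neighbours in this order overlapped in their ranges. Within each Mock library CRK29 was the highest of these 3 genes per kb, which was not tested. CRK19 and CRK28 changed places between Mock libraries, so their order is not resolved. CRK28 and the fourth gene, CRK3 (AT1G70530) with 4.62 ± 1.32 CPM per kb, did not overlap. Below CRK3 came CRK27 with 2.81 ± 2.01, CRK11 with 2.38 ± 0.396, CRK34 with 2.30 ± 0.729, CRK10 with 1.94 ± 2.05, CRK30 with 1.48 ± 0.575 and CRK26 with 1.37 ± 1.42 CPM per kb, and each overlapped the next. CRK2 and CRK25 were lowest among the tested members with Mock reads, at 0.492 ± 0.408 and 0.254 ± 0.379 CPM per kb, and CRK17 had 0 counts. CRK29, CRK28 and CRK19 together made up between 73.0% and 84.4% of the family's summed CPM in the Mock libraries and between 63.6% and 81.2% after RGF1. The family's sum was 266, 216 and 150 CPM in Mock replicates 1 to 3 and 453, 305 and 257 CPM in RGF1 replicates 1 to 3. The lowest RGF1 library was below the highest Mock library, so the sums overlapped.

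**Figure D1:**
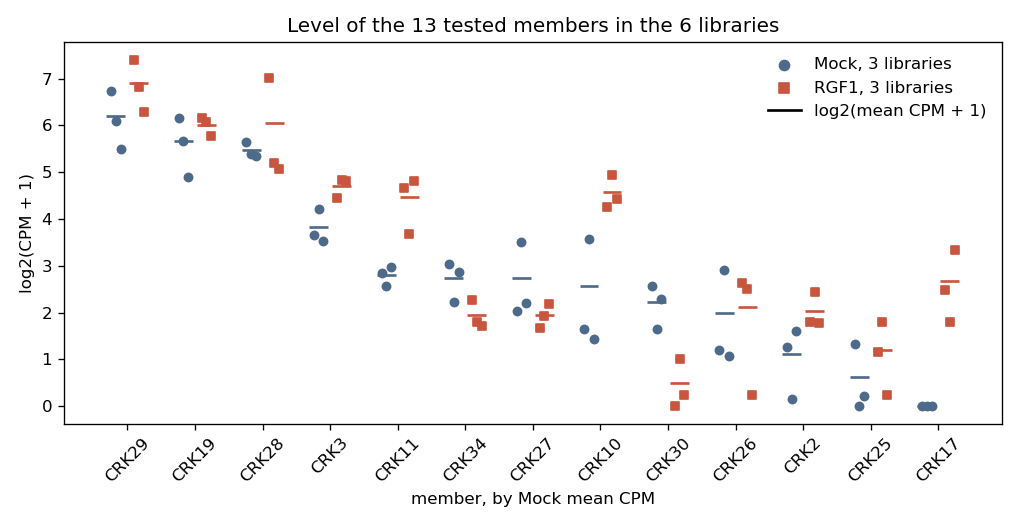
Level of each of the 13 tested members as log2(CPM + 1) on the vertical axis, with members ordered by their Mock mean CPM. Circles are the 3 Mock and squares the 3 RGF1 libraries, and bars mark log2(mean CPM + 1). CRK29, CRK19 and CRK28 lie highest, and CRK2, CRK3, CRK10, CRK11 and CRK17 show RGF1 libraries above all Mock libraries.

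The comparison of RGF1 with Mock asks which transcripts of the meristem differ after 1 h of the peptide. CRK17, with 0 counts in the Mock libraries, was the 1 member that edgeR's test called higher, and the call was lost with any 1 library left out. CRK10 and CRK11 had the next smallest p. These 3 genes lie in the tandem array of 20 members. In edgeR's quasi-likelihood test over 16737 genes, 1 of the 13 tested members, CRK17, was called higher at an adjusted p below 0.05. The share over all tested genes was 0.466%. Members called lower numbered 0, where the share was 0.0299%. CRK17 passed the expression filter through its RGF1 libraries alone, so its place among the tested members depends on the group where it is high. It also enters the counts of non-overlapping and positive members and the median below. CRK30 in turn passed the filter through its Mock libraries alone, the group where it is high. CRK30 enters the lower, non-overlapping and negative counts and the median below. At an unadjusted edgeR p under 0.05, 4 members were higher (4.26% of all tested genes) and 1 was lower (3.5%). DESeq2 called 3 members higher (1.23% of the genes it tested) and 0 lower (0.425%), and limma voom called 0 higher (0.388%) and 0 lower (0.0239%). The labels do not say that equal replicate numbers mark paired libraries. With the replicate number taken as a block all the same, 2 members were called higher (1.24% of all tested genes) and 0 lower (0.562%). The 3 RGF1 libraries lay above the 3 Mock libraries in 5 of the 13 tested members, with a background of 7.3%, and below them in 1, with a background of 6.18%. The median log2 fold change was 0.72 over the 13 tested members and -0.01 over all tested genes, with 10 members positive and 3 negative. In these bulk samples, fewer cells of a type and less RNA per cell cannot be told apart.

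**Figure D2:**
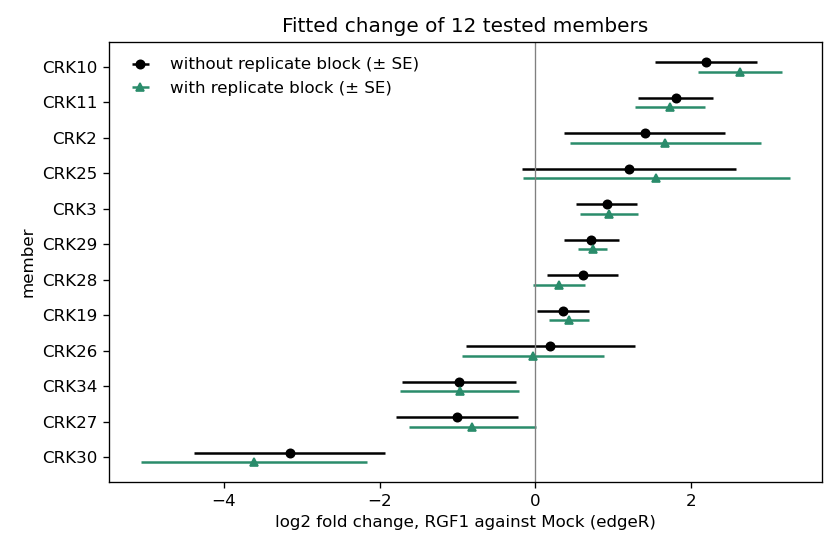
Fitted log2 fold change of RGF1 against Mock on the horizontal axis for 12 tested members, with the standard error, from edgeR without (circles) and with (triangles) the replicate block. CRK17, whose fold has no defined size because the Mock libraries held 0 counts, is left out; CRK10 and CRK11 lie farthest to the right and CRK30 farthest to the left.

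The array AT4G23130 to AT4G23320, CRK5 to CRK24, spans 12117491 to 12191704 on chromosome 4 in TAIR10.1. Of its 20 genes, 8 had 0 counts in the 6 libraries and 4 were tested, CRK10, CRK11, CRK17 and CRK19. All 4 had positive fold changes, and in 3 of them the RGF1 libraries lay above the Mock libraries, which held for 7.3% of all tested genes. CRK17, 1 of these 3, was tested only through its RGF1 reads.

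**Figure D3:**
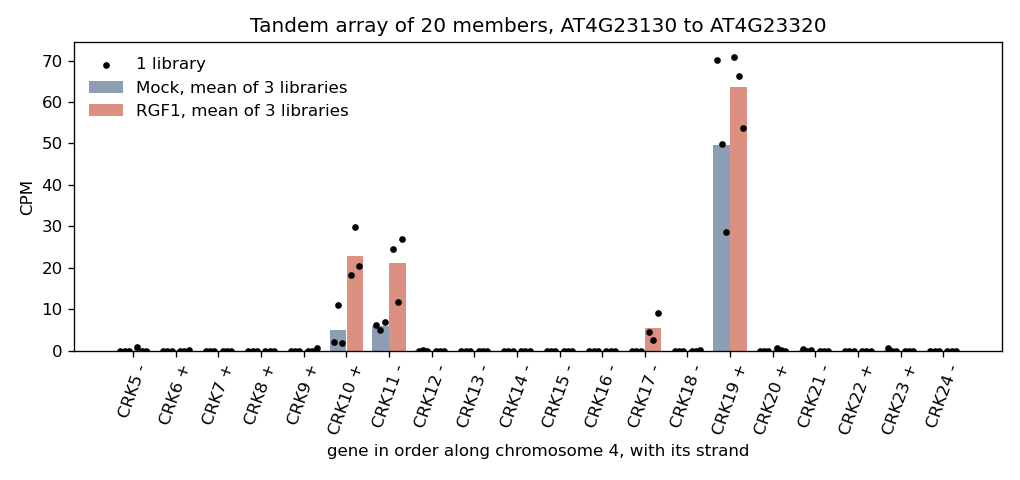
Level in CPM on the vertical axis of the 20 genes of the array, in their order along chromosome 4 with the strand beside each name; bars are means and points single libraries. Reads were concentrated in CRK10, CRK11, CRK17 and CRK19, with the 16 other genes below 1 CPM in every library.

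CRK17 (AT4G23250, EMB1290 in RefSeq, chromosome 4, 12162004 to 12167026), a receptor kinase gene whose RefSeq symbol comes from an embryo-defective mutant, had 0 counts in each Mock library and 44, 17 and 48 counts in RGF1 replicates 1 to 3. In CPM the RGF1 libraries held 4.58, 2.50 and 9.04. All 3 were above the Mock floors. Their mean was 14.3-fold the mean Mock floor of 3 counts per library, which bounds the fold on the Mock side only. The spread of the RGF1 libraries is not in this bound. CRK17 was called by edgeR (edgeR adjusted p = 0.0452). It was called with the block too (edgeR adjusted p = 0.0353). The call was lost without any 1 of the 6 libraries, with edgeR adjusted p from 0.0804 without RGF1 replicate 2 to 0.197 without RGF1 replicate 3, and without RGF1 replicate 3 the bound was 9.42-fold. Its last 1190 bases overlap CRK16 on the same strand. CRK16 had 0 counts throughout, and 25.1% of the 50-base words of the CRK17 coding sequence also occur in another gene, most of them in CRK16. Words in the overlapping bases are counted under both genes, so this share does not by itself measure likeness between separate copies.

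CRK10 (AT4G23180, chromosome 4, 12137995 to 12140930) had 2.14, 10.97 and 1.72 CPM in Mock replicates 1 to 3 and 18.2, 29.8 and 20.5 CPM in RGF1 replicates 1 to 3. The groups did not overlap, and replicate 2 was highest in both. On the log2 scale the change was 2.19 ± 0.66 (SE), which the edgeR test over all genes did not call (edgeR adjusted p = 0.279). DESeq2, without the block, called CRK10 (adjusted p = 0.0408). With the block CRK10 passed, at 2.63 ± 0.54 (SE) and edgeR adjusted p = 0.0264. Without replicate 1 or 3 the blocked fit no longer called it, with edgeR adjusted p of 0.0761 and 0.206. Without Mock replicate 2, the high Mock library, CRK10 passed the edgeR test without the block as well, at 3.55 (edgeR adjusted p = 0.0310, where 0.287% of all tested genes were called higher).

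CRK11 (AT4G23190, chromosome 4, 12140899 to 12143858), the neighbour of CRK10 on the opposite strand, had 6.21, 4.92 and 6.90 CPM in Mock and 24.5, 11.7 and 26.9 CPM after RGF1. RGF1 replicate 2 was the lowest RGF1 library and still above every Mock library. The log2 fold change was 1.81 ± 0.48 (SE), with edgeR adjusted p = 0.186 without and 0.0863 with the block, and DESeq2 called it (adjusted p = 0.0212). CRK10 and CRK11 end facing each other and overlap by 32 bases. Their proteins are 51.6% identical over 640 aligned residues, and under 1% of the 50-base words of either coding sequence occur in another gene (0.408% and 0.358%).

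CRK19 (AT4G23270, chromosome 4, 12170955 to 12174297), whose overexpression is known to trigger cell death in leaves, was the abundant gene of this array. It had 70.2, 49.8 and 28.7 CPM in Mock and 70.8, 66.2 and 53.7 CPM after RGF1. The groups overlapped, and the log2 fold change of 0.36 ± 0.33 (SE) did not pass (edgeR adjusted p = 0.880). Its next neighbour CRK20, the closest member in sequence with 84.9% identity over 644 residues, had 0 counts in Mock and 7, 1 and 0 counts after RGF1.

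CRK28 and CRK29 lie in tandem on the minus strand of chromosome 4, with CRK27 nearby, and are 81.5% identical over 676 residues. The pair share 1.5% and 1.51% of the 50-base words of their coding sequences, and their annotated ends overlap by 470 bases. CRK29 (11401711 to 11405235) had 106, 67.3 and 44.4 CPM in Mock replicates 1 to 3 and 168, 112 and 77.4 CPM in RGF1 replicates 1 to 3. The groups overlapped, but within each replicate number the RGF1 library was higher, by 1.59, 1.67 and 1.74 times. The log2 fold change was 0.72 ± 0.36 (SE) without the block (edgeR adjusted p = 0.677) and 0.74 ± 0.19 (SE) with it (edgeR adjusted p = 0.0844), and CRK29 was called in neither fit. CRK28 (11398857 to 11402180), which is known to associate with BAK1 and FLS2, had 49.1, 40.7 and 39.7 CPM in Mock and 129, 35.7 and 32.4 CPM after RGF1. RGF1 replicate 1 stood high and the other RGF1 libraries were below every Mock library. The log2 fold change of CRK28 was 0.61 ± 0.45 (SE; edgeR adjusted p = 0.841) and turned to -0.34 without RGF1 replicate 1. CRK27 (AT4G21230) had 3.11, 10.4 and 3.61 CPM in Mock and 2.19, 2.79 and 3.58 CPM after RGF1, which overlapped (edgeR adjusted p = 0.847).

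In the array AT4G11460 to AT4G11530, CRK30 and CRK34 were tested, and both had negative fold changes, as did CRK27. CRK30 (AT4G11460, chromosome 4, 6963521 to 6967200) had 46, 19 and 25 counts in the Mock libraries and 0, 7 and 1 counts in the RGF1 libraries, which is 4.93, 2.13 and 3.92 CPM against 0, 1.03 and 0.188 CPM. The groups did not overlap, and the difference did not pass (log2 fold change -3.16 ± 1.22 SE, edgeR adjusted p = 0.507). CRK30 was tested only through its Mock reads, so its place among the tested members depends on the group where it is high. Without RGF1 replicate 2 the log2 fold change of CRK30 was -5.34, and without RGF1 replicate 1 it was -2.52. The xylem markers, which also lay lower after RGF1 without overlap, are given above, and their part in this difference was not tested. CRK34 (AT4G11530) had 7.18, 3.69 and 6.27 CPM in Mock and 3.85, 2.50 and 2.26 CPM after RGF1, with edgeR adjusted p = 0.841. The other 3 genes, CRK31 to CRK33, were not tested, with 2, 0 and 0 counts.

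The array AT4G04490 to AT4G04570, CRK36 to CRK40, held no tested member. CRK39 had 10 counts, all in RGF1 replicate 2, and CRK40 had 14 of its 18 counts in Mock replicate 2. On chromosome 1, CRK3 (AT1G70530, 26588391 to 26591776) had 11.7, 17.6 and 10.5 CPM in Mock and 20.9, 27.3 and 27.1 CPM after RGF1. The groups did not overlap, and the log2 fold change of 0.92 ± 0.39 (SE) did not pass without (edgeR adjusted p = 0.580) or with the block (0.307). Its neighbour CRK2 (AT1G70520, 26584729 to 26587628), which phosphorylates RBOHD, had 13, 1 and 13 counts in Mock and 24, 30 and 13 counts after RGF1. In CPM the RGF1 libraries were above the Mock libraries, at 2.50, 4.404 and 2.45 against 1.39, 0.112 and 2.04 CPM (edgeR adjusted p = 0.841). Of the members outside the arrays, CRK25 and CRK26 were tested, overlapped between groups and had edgeR adjusted p of 0.918 and 0.993. CRK25 shares 492 bases with AT4G05190 on the opposite strand, a gene with 1357 counts in Mock and 1084 after RGF1, and without strand these reads may not have been told apart.

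**Figure D4:**
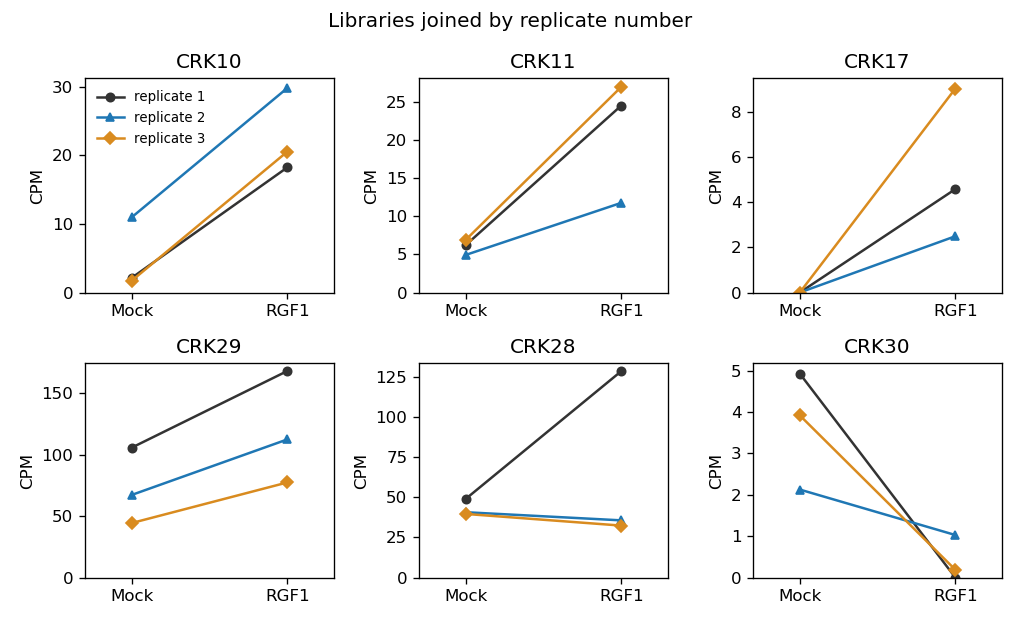
Level in CPM, on axes from 0, of 6 members in Mock and RGF1 libraries, with lines joining libraries of the same replicate number. CRK10, CRK11, CRK17 and CRK29 are higher after RGF1 in each of the 3 pairs, CRK30 is lower in each, and CRK28 is higher in replicate 1 only.

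The encoded proteins varied in length and in the number of repeats. In the 41 members with a whole reading frame in the annotation, 36 translated coding sequences held 2 copies of the DUF26 signature, which is a cysteine, 8 residues of any kind, a cysteine, 2 residues of any kind and a cysteine. CRK17 held 4, in a model of 1001 residues against a family median of 660, CRK23 held 3, CRK24 and CRK27 held 1 and CRK45 held 0. Identity to the closest other member ranged from 44.6% to 84.9%. More than 10% of 50-base words occurred in another gene for 6 members, all in the array of 20 genes (CRK6, CRK8, CRK13, CRK16, CRK17 and CRK22), and of these CRK17 was tested. The models of CRK16 and CRK17 overlap on the same strand, so their shared bases can enter this share.

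Other genes with DUF26 domains and the kinases and oxidases known to work with CRKs were compared in the same fit. Of 8 plasmodesmata-located proteins, which carry DUF26 repeats without a kinase, 3 were tested and 0 were called by edgeR with or without the block, with a median log2 fold change of -0.02. At an unadjusted p under 0.05 there were 0 as well, and PDLP7, PDLP3 and PDLP2 had log2 fold changes of 0.27, -0.32 and -0.02. A list of 30 genes annotated as secreted cysteine-rich repeat proteins or further cysteine-rich receptor-like kinases had 2 counts in all, both in 1 gene, and 0 were tested. Its genes were picked by annotated product name. Genes with DUF26 domains under other names would be missed, so the list does not describe all secreted proteins of this kind. Of 8 partners, edgeR called 0 higher without the block, where the share over all tested genes was 0.466%. With the block edgeR called 2, BAK1 and RBOHD, where the share was 1.24%. The median log2 fold change of the partners was 0.61 without the block. DESeq2, also without the block, called RBOHD alone among the partners (adjusted p = 0.00677). DESeq2 called 1.23% of the genes it tested higher. The co-receptor kinase gene BAK1 had 182, 147 and 110 CPM in Mock and 257, 272 and 243 CPM after RGF1, with edgeR adjusted p of 0.294 without and 0.0293 with the block. The oxidase gene RBOHD had 30.6, 52.4 and 42.5 CPM in Mock and 123, 78.4 and 111 CPM after RGF1, with edgeR adjusted p of 0.0839 without and 0.0286 with the block. In both genes the RGF1 libraries lay above the Mock libraries. The cytoplasmic kinase gene BIK1 changed by 1.54 ± 0.66 (SE) on the log2 scale and was not called without the block (edgeR adjusted p = 0.597).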

How the data were processed

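The authors deposited 1 table of gene-level read counts for each library, as whole numbers with no normalisation. The tools named in the submitters' processing notes are HTSeq, DESeq2 and TopHat2 2.1.1, with TAIR10 as the build. Which annotation release was counted, whether strand was used and how multiply mapped reads were handled is not given in the sources used here. Near-identical copies and overlapping genes may therefore have lost or shared reads. RNA was amplified from small input, per the labels' protocols, which adds spread to low counts.

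The 42 members and all gene lists were chosen with earlier results of these data known. The members with values in every library were those called by any of 3 fits (edgeR, edgeR with the block, DESeq2), those whose groups did not overlap with a mean of at least 1 CPM in the higher group, the 5 highest in Mock per kb, and the member of each array with the smallest p. CRK34, CRK20, CRK25 and other members with few reads are given beside these as a summary. All genes kept by filterByExpr, 16737 of 30424, were fitted with the quasi-likelihood test of edgeR 4.0.16 under R 4.3.3 after TMM scaling, and p-values were adjusted by Benjamini-Hochberg over all of them. Standard errors came from the F statistic, and the prior count was 0.125. DESeq2 1.42.0 and limma 3.58.1 were alternatives. The fits were also run on simulated counts with known folds. These held no replicate effect and no gene set to be absent from Mock, so they say nothing about the block or CRK17. Same-numbered libraries deviated together from their group means (correlations of 0.192, 0.229 and 0.322 across tested genes, against -0.173 to -0.0524 for other numbers). Deviations within a group cancel out, so the negative values follow in part from the positive ones and are no separate evidence. The numbers were taken as pairs, on a hint from the data that the labels do not state.

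Positions, exon lengths, promoters and coding sequences came from the RefSeq annotation and genome of TAIR10.1. Coding sequences were translated and aligned globally in Biopython 1.88 with BLOSUM62, and the coding sequence of CRK1, which is not a whole number of codons there, was left out.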

Additional observations from a re-analysis of the deposited data

How the results depend on the processing

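The count of members called higher, 1 without the block, was 0 when scaled by total counts, with a mean count of at least 10 and with limma voom, 3 with DESeq2 and 2 with the replicate block. The same values hold for the array of 20 genes, and for members called lower and the other arrays the count was 0 in each alternative. Leaving out 1 library gave 0 to 1 members called higher. With the replicate block and both libraries of 1 number left out, which was added after seeing the data, it gave 0, 2 and 0 without replicates 1, 2 and 3. Over all genes, 78 were called higher and 5 lower, against 176 and 46 with no low-count filter, 234 and 81 with DESeq2 and 208 and 94 with the replicate block. Leaving out 1 library gave 39 to 113 higher and 1 to 5 lower, and with the block 204, 221 and 116 higher and 60, 130 and 39 lower without replicates 1, 2 and 3. The block changed the call of CRK10 and of no other member. The log2 fold change of CRK28 was reversed to -0.34 without RGF1 replicate 1, in a range of up to 0.93 over libraries left out, and to -0.24 with the block without replicate 1. With at least 5 CPM in each library, 4 members were detected in Mock and 6 in RGF1. The cause of these shifts was not tested, beyond the smaller number of libraries. Of the other values of named members, 142 kept their direction and side of the threshold, 11 lost the call, each of them of CRK17, and 5 gained it, 4 of CRK10 and 1 of CRK11. The 14 members with 0 counts and the 13 with 1 to 10 counts over the 6 libraries together were not tested, and differences in them were not assessed at this depth.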

Other observations

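AT5G48540 (chromosome 5, 19668964 to 19669920), annotated as a receptor-like protein kinase-related family protein and not a member of the lists above, was chosen after its values were seen. It had 6.64, 1.12 and 0.157 CPM in Mock replicates 1 to 3 and 26.9, 31.7 and 69.3 CPM after RGF1. The groups did not overlap, and its log2 fold change was 3.96 ± 0.83 (SE), with edgeR adjusted p = 0.0614 without and 0.0183 with the replicate block. Without Mock replicate 1 it passed (edgeR adjusted p = 0.00241), and without the other libraries in turn its edgeR adjusted p ranged from 0.0717 to 0.240.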
